A study of Mus musculus with 8 samples.

Results

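The 6 genes known as markers of the hippocampus were followed in cortical mRNA of 8 mouse libraries. They were chosen by name, 3 as markers of the dentate gyrus (Dsp, Tdo2 and Lct) and 3 as markers of the CA fields (Spink8, Fibcd1 and Iyd), and are 6 of the 55416 genes in the count table. Each was found once, and all 6 had counts in every library and entered the test over all genes. The libraries were made from cerebral cortex of mice heterozygous for Ago2 L192P (L192P, n = 4) and of wild-type mice (WT, n = 4). The knock-in allele was introduced by CRISPR/Cas, founders were crossed to C57/Bl6 mice, and carriers were bred with wild-type animals. Few carriers were obtained alive. Age and sex are not given in the labels, and nothing in them says whether a shared replicate number marks a litter or a day.

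The hippocampus is a fold of the medial cortex in which granule cells of the dentate gyrus project to pyramidal cells of CA3, and these in turn to CA1. Granule and pyramidal cells of each field express characteristic genes, which are used to tell the fields apart. The hippocampus lies directly beneath the neocortex. In bulk tissue, fewer cells of a type and less RNA per cell cannot be told apart.

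Libraries held 20396357 to 43575900 counts. Xist was nearly absent from both replicate 1 libraries (0.934 and 1.82 normalized counts), against 5185 to 7257 in the other 6. Genes of chromosome Y had 3547 and 3534 counts in the replicate 1 libraries and 186 to 573 in the other 6. By these genes replicate 1 was male and the other numbers female in both genotypes, so sex goes with the replicate number. Genes of cortical projection neurons such as Tbr1 and Cux2 had counts in every library, and so did genes of dentate granule cells (Prox1, C1ql2) and of striatal neurons (Ppp1r1b). Of 18627 genes tested between the genotypes, 1.36% had an adjusted p under 0.05 with DESeq2.

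None of the 6 hippocampal markers differed between L192P and WT beyond the spread of the libraries. Replicate 3 was the highest library of its genotype for each of the 6 genes, in L192P and in WT alike. The excess in replicate 3 was largest for Dsp and Lct and smallest for Fibcd1. Values below are normalized counts, that is counts scaled by the DESeq2 size factor of the library, and are given for replicates 1 to 4 in that order.

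Dsp encodes desmoplakin, which ties desmosomal junctions to intermediate filaments and marks granule cells in the dentate gyrus. Its normalized counts were 22.4, 25.04, 123.4 and 15.6 in L192P and 37.3, 29.9, 166.2 and 9.37 in WT. The replicate 3 libraries were high in both genotypes, the replicate 4 libraries were the lowest of each, and the genotypes overlapped. Lct encodes lactase, the disaccharidase of the intestinal brush border. Its normalized counts were 39.2, 33.0, 187.9 and 32.3 in L192P and 41.0, 21.5, 179.2 and 37.5 in WT. Outside replicate 3 no library of Lct exceeded 41.0. Tdo2 encodes tryptophan 2,3-dioxygenase, which opens the indole ring of tryptophan at the start of the kynurenine pathway. It had 23.4, 18.2, 42.7 and 27.6 normalized counts in L192P and 28.2, 20.9, 58.7 and 15.2 in WT, so replicate 3 again led in both genotypes, by a smaller margin.

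Among the CA field markers, Fibcd1 was by far the most abundant. It encodes a membrane receptor with a fibrinogen-like domain that binds acetylated compounds. Its normalized counts were 536.3, 600.9, 812.9 and 530.7 in L192P and 629.2, 629.3, 762.6 and 306.7 in WT. Replicate 3 was highest in each genotype, and WT replicate 4 was set below all other libraries. Spink8, a Kazal-type serine protease inhibitor, had 66.3, 42.1, 81.9 and 46.7 normalized counts in L192P and 46.4, 48.6, 72.8 and 12.9 in WT. It had the same highest and lowest libraries as Fibcd1 in WT. Iyd encodes iodotyrosine deiodinase, which recovers iodide in the thyroid. It had 4.67, 3.41, 20.8 and 7.19 normalized counts in L192P and 10.9, 9.60, 35.8 and 5.85 in WT. The lowest of these rests on 3 counts in the deposited table, so single libraries of Iyd are coarse.

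**Figure D1:**
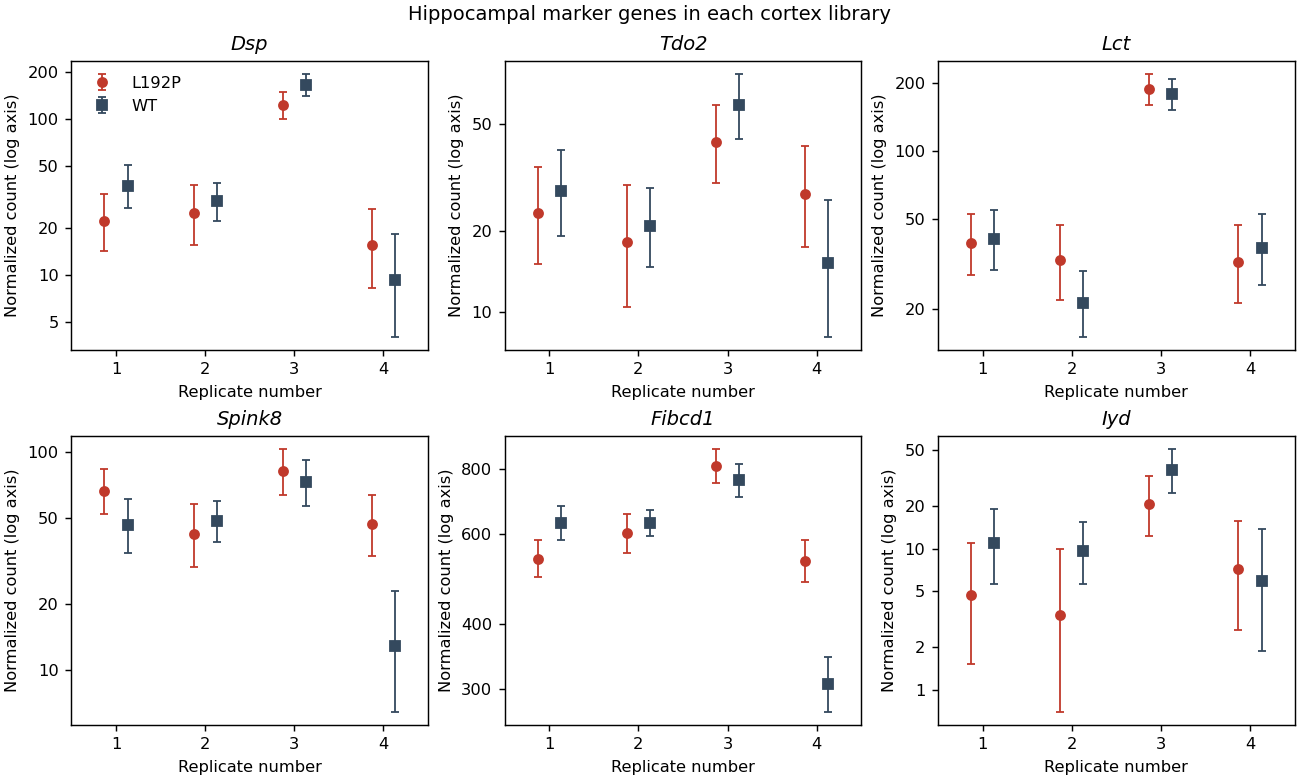
Normalized counts of the 6 hippocampal marker genes (log axis, scaled separately for each gene) by replicate number. Circles are L192P and squares are WT libraries, and bars are exact 95% Poisson intervals, which cover counting error only. Replicate 3 is the highest library of its genotype in all 6 panels, and WT replicate 4 is far below the other libraries for Spink8 (12.9) and Fibcd1 (306.7).

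The replicate 3 library of L192P had 5.87 times the mean of the other 3 L192P libraries for Dsp, 5.39 times for Lct and 4.08 times for Iyd. The corresponding ratios in WT were 6.51, 5.38 and 4.08. Tdo2 had ratios of 1.85 in L192P and 2.73 in WT, and Spink8 of 1.58 and 2.02. For Fibcd1 the ratio was 1.46 in either genotype. The exact 95% Poisson interval of replicate 3 lay above those of all other libraries of its genotype for 3 genes in L192P (Dsp, Lct and Fibcd1) and for 5 genes in WT (all but Spink8). Replicate 3 was singled out after the values had been seen, so these ratios are a description. Both replicate 3 libraries had ordinary depth, at 20982038 and 22724647 counts. Among all genes tested, replicate 3 was the highest library in both genotypes for 6.97%.

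WT replicate 4 was the other library that stood apart for the markers. It was the lowest WT library for 5 of the 6 markers (all but Lct), where 22.7% of all tested genes had their lowest WT value in it. Of the 31 further hippocampal genes described below, 7 had their lowest WT value in it, a share near that of all genes. This library, too, was singled out after the values had been seen. Its Spink8 level was 12.9 normalized counts, where the other WT libraries had 46.4 to 72.8.

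The sums of the dentate and of the CA markers did not keep a fixed proportion across libraries. They do not stand for each gene of their group. In replicate 3 the CA marker Iyd had 4.08 times the mean of the other libraries in either genotype. The dentate marker Tdo2 had 1.85 times in L192P and 2.73 times in WT. The summed normalized counts of Dsp, Tdo2 and Lct were 0.387 of those of Spink8, Fibcd1 and Iyd in L192P replicate 3 and 0.464 in WT replicate 3. In the other 6 libraries this ratio ran from 0.105 (WT replicate 2) to 0.191 (WT replicate 4). The dentate sum was 354.0 in L192P replicate 3 and 404.1 in WT replicate 3, and at most 106.5 elsewhere. The CA sum, most of which is Fibcd1, was 915.5 and 871.2 in these libraries and at most 687.5 elsewhere.

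Adjusted for exon length, as TPM (transcript levels scaled to the same total in each library, computed from the counts), the order of mean levels was Fibcd1, Spink8, Lct, Tdo2, Dsp and Iyd. Fibcd1 had 25.1 ± 4.89 TPM in L192P (SD, n = 4) and 23.3 ± 7.94 in WT. Spink8 had 10.6 ± 3.31 and 7.99 ± 4.36 TPM. Fibcd1 was above Spink8, and Spink8 above Lct, in all 8 libraries, although the ranges over libraries overlapped. The remaining neighbours were not separated beyond their spread. Lct was above Tdo2 in 5 of 8 libraries, Tdo2 above Dsp in 6 and Dsp above Iyd in 4. The dentate markers had mean TPM values of 1.03 ± 1.11 in L192P and 1.34 ± 1.56 in WT for Dsp, 1.49 ± 0.533 and 1.63 ± 1.03 for Tdo2, and 2.44 ± 2.50 and 2.32 ± 2.44 for Lct. Iyd had 0.738 ± 0.640 TPM in L192P and 1.27 ± 1.12 in WT.

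The 6 genes lie on 6 chromosomes of GRCm39. Dsp (ENSMUSG00000054889) is on chromosome 13 from 38335230 to 38382553, Tdo2 (ENSMUSG00000028011) on chromosome 3 from 81864248 to 81883509, and Lct (ENSMUSG00000026354) on chromosome 1 from 128212493 to 128256055. Spink8 (ENSMUSG00000050074) is on chromosome 9 from 109641348 to 109655706, Fibcd1 (ENSMUSG00000026841) on chromosome 2 from 31702948 to 31736233, and Iyd (ENSMUSG00000019762) on chromosome 10 from 3490233 to 3505854. Exons of Gm10129 overlap Dsp and exons of Ctso overlap Tdo2 on the opposite strand. The strand setting of the authors' counting is not given in the sources used here, and reads of the overlapping genes may be included.

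Since Dsp, Lct and Iyd moved furthest with the replicate number, their promoters are shown. RefSeq promoter entries on GRCm38.p6, another build than that of the counts, were held for 5 of the 6 genes. The 250 bases before the annotated start of each are printed 5′ to 3′ on the strand of the gene. Capitals mark matches, on either strand, to a GC box (GGGCGG), an E-box (CANNTG) or a TATA motif (TATAAA). None of the marked motifs overlaps another.
Dsp, chr13:38151044-38151293, plus strand: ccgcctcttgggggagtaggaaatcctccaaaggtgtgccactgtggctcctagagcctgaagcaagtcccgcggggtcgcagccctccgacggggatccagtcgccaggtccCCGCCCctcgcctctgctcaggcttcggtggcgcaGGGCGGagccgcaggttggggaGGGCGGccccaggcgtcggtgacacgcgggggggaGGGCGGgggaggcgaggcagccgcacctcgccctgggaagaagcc
Lct, chr1:128328319-128328568, minus strand: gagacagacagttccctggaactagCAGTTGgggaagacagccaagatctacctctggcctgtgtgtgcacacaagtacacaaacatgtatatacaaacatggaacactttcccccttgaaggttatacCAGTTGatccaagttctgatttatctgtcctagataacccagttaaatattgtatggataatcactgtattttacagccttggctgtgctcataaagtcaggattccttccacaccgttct
Iyd, chr10:3540024-3540273, plus strand: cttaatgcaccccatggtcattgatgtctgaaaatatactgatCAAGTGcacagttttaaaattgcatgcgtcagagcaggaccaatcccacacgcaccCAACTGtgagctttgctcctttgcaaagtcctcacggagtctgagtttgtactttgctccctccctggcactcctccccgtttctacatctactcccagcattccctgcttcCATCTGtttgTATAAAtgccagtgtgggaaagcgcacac

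Of these promoters, that of Dsp was far richer in G and C than those of Lct and Iyd, which were closer to each other. The Dsp window had a GC content of 72.4%, with 4 GC boxes and neither of the other motifs. The Lct window had a GC content of 42.8% and 2 E-boxes, both CAGTTG. The Iyd window had a GC content of 48.4%, 3 E-boxes and a TATA motif whose first base is 29 bases before the start. Of 32851 promoters in the same table, whose median GC content was 52.4%, 66.2% had an E-box in this window, 32.7% a GC box and 12.4% a TATA motif. The windows of Tdo2 and Fibcd1 had GC contents of 46.4% and 71.6%. A match of letters is not a bound site.

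The comparison of L192P with WT asked whether the hippocampal markers differ between the genotypes in cortex. With DESeq2, 0 of the 6 passed an adjusted p of 0.05, where 1.36% of all tested genes did. At that share a set of 6 genes would most often hold no call, so the count does not set the markers apart. Of the 6, 0 had an unadjusted p under 0.05. With edgeR, limma-voom and the other alternatives, 0 of the markers that were given an adjusted p passed the threshold either. edgeR and limma-voom gave no value for Iyd, which also had no adjusted p in some fits that left out libraries. DESeq2 with the replicate number as a block gave an adjusted p for Fibcd1 alone, so that fit could not call the other markers. The genotypes overlapped for all 6 markers, where 5.97% of all tested genes had groups that did not overlap. An exact permutation test of 4 against 4 cannot give a two-sided p below 0.0286.

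Iyd had the lowest log2 fold change of the 6, with means of 9.01 ± 7.99 (L192P) and 15.6 ± 13.7 (WT) normalized counts (SD, n = 4 each). DESeq2 put the difference at -0.79 ± 0.67 log2 units (SE; adjusted p = 0.832). Dsp averaged 46.6 ± 51.3 (L192P) and 60.7 ± 71.3 (WT) normalized counts, a difference of -0.38 ± 1.01 log2 units (SE; DESeq2 adjusted p = 0.979). The 95% interval of the Dsp fold change ran from 0.194 to 3.04, so a large difference in either direction lies within it. Tdo2 had 27.9 ± 10.5 and 30.8 ± 19.4 normalized counts and a difference of -0.13 ± 0.42 log2 units (SE). Lct had 73.1 ± 76.6 and 69.8 ± 73.5 normalized counts and a difference of 0.07 ± 0.90 log2 units (SE). For Lct and Dsp the SD was as large as the mean or larger in either genotype, since 1 library of 4 carried most of the counts.

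Spink8 had the highest log2 fold change of the 6, with means of 59.3 ± 18.4 (L192P) and 45.2 ± 24.6 (WT) normalized counts. DESeq2 put the difference at 0.39 ± 0.37 log2 units (SE; adjusted p = 0.871). Fibcd1 had 620.2 ± 132.4 and 582.0 ± 194.0 normalized counts and a difference of 0.09 ± 0.31 log2 units (SE). It had the narrowest interval of the 6, with a fold change between 0.704 and 1.61. The DESeq2 adjusted p was 0.984 for Tdo2, 0.998 for Lct and 0.985 for Fibcd1. Exact two-sided permutation tests of the normalized counts gave p = 0.629 for Dsp, 0.800 for Tdo2, 0.714 for Lct, 0.429 for Spink8, 0.857 for Fibcd1 and 0.486 for Iyd.

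Because the replicate numbers moved together across the transcriptome, the genotypes were also compared with the number as a block. This fit called 4.25% of 12536 genes, 533 in all, where the fit on genotype alone called 253, and it called 0 of the 6 markers. The standard error of Dsp fell from 1.01 to 0.33 and that of Lct from 0.90 to 0.27. Among all genes tested on genotype alone, the standard error was smaller with the block for 35.7%. With the block, the log2 fold change was -0.28 for Dsp (95% interval from -0.93 to 0.37) and 0.10 for Lct (from -0.44 to 0.64). Unadjusted p-values in the blocked DESeq2 fit were 0.396 for Dsp and 0.719 for Lct. The standard errors of Tdo2, Spink8 and Iyd changed little, at 0.41, 0.34 and 0.65. The blocked DESeq2 fit gave an adjusted p for Fibcd1 alone of the 6 (0.894), and the other 5 were under its count filter. edgeR with the block, added after seeing the data, gave adjusted p-values of 0.429 to 0.910 for the 5 markers it retained, and Iyd was not retained.

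**Figure D2:**
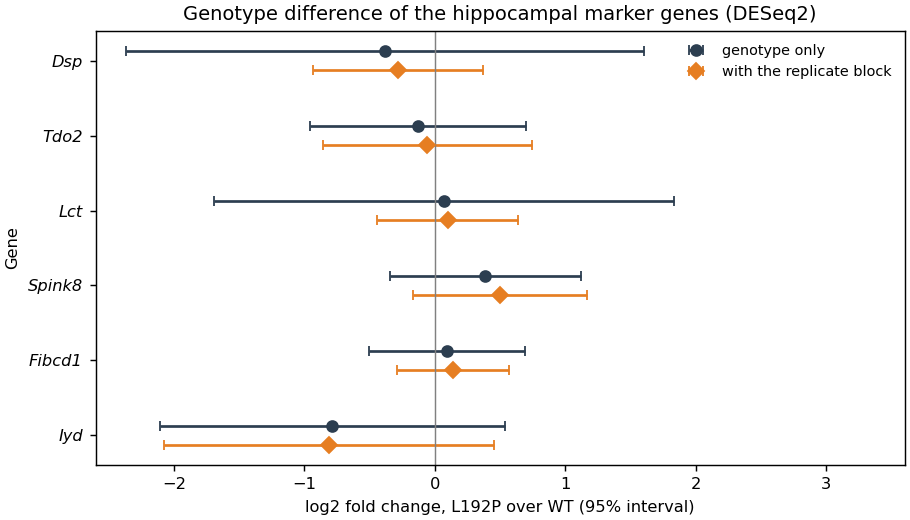
DESeq2 log2 fold changes of the 6 markers, L192P over WT, with 95% intervals, from the fit on genotype alone (circles) and from the fit with the replicate number as a block (diamonds). Every interval includes 0, and the intervals of Dsp and Lct are about 3 times narrower with the block.

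Within replicate numbers the direction was mixed. The log2 ratio of L192P to WT was negative in 3 of 4 numbers for Dsp, Tdo2 and Iyd, and in each case the positive one was replicate 4. It was positive in 3 of 4 numbers for Spink8. In replicate 4 the log2 ratios were 0.73 for Dsp, 0.86 for Tdo2, 1.86 for Spink8, 0.79 for Fibcd1 and 0.30 for Iyd, and Lct alone was negative, at -0.21. In replicate 3, where the markers were highest, the log2 ratios were -0.43 for Dsp, -0.46 for Tdo2, 0.07 for Lct, 0.17 for Spink8, 0.09 for Fibcd1 and -0.79 for Iyd. The Spink8 and Fibcd1 values of replicate 4 come from a WT library in which both genes were low. Without WT replicate 4 the log2 fold change of Spink8 was 0.10 and that of Fibcd1 was -0.12.

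**Figure D3:**
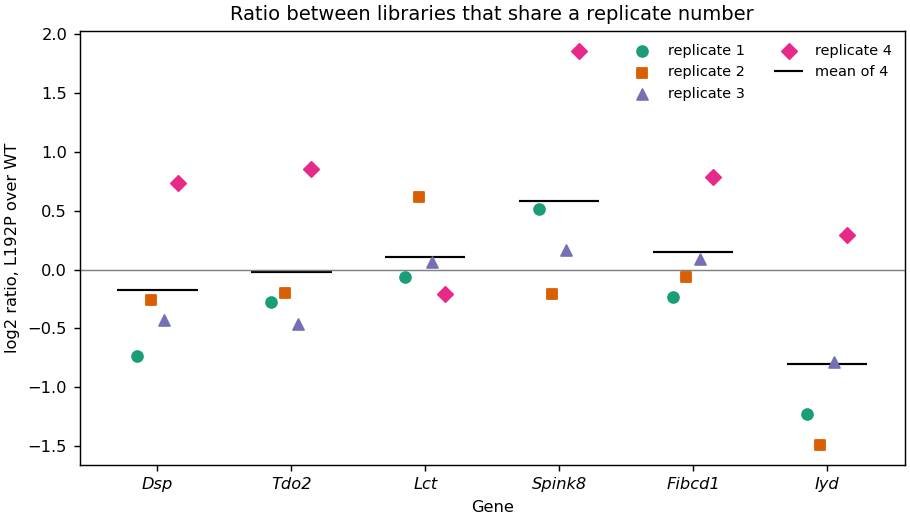
Log2 ratio of the L192P to the WT library with the same replicate number for each marker, with the mean of the 4 ratios as a line. Replicate 4 gave the highest ratio for every marker but Lct, up to 1.86 for Spink8, and replicate 3 lay between -0.79 and 0.17.

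A single library could set the sign of the difference. Without L192P replicate 3 the log2 fold change was -1.53 for Dsp, -0.995 for Lct and -1.60 for Iyd, and without WT replicate 3 it was 0.86, 1.14 and 0.0092. The unadjusted p of Iyd without L192P replicate 3 was 0.0291, and DESeq2 gave it no adjusted p there. Leaving out both replicate 3 libraries, an alternative added after seeing the data, gave -0.30 for Dsp, 0.09 for Lct and -0.81 for Iyd, close to the values with all 8.

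Other genes of the hippocampal fields were taken from lists of dentate granule cells, CA1, CA2 and CA3 pyramidal cells, mossy cells, the subiculum and the hippocampus as a whole. All 31 genes of these lists were tested, and 2 were called by DESeq2, 1 in each direction, where 0.789% of all genes were called higher and 0.569% lower. The median log2 fold change of the 31 genes was -0.02, with 15 above 0 and 16 below, and the median of all tested genes was 0.0019. Of the dentate granule list 0 of 9 genes were called. Among them C1ql2, which encodes a secreted synaptic organizer of mossy fibres, had a difference of 0.35 ± 0.76 log2 units (SE), and Trpc6, a cation channel, of 0.21 ± 0.15.

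Cacng5, an auxiliary subunit of AMPA receptors on the CA2 list, rose in L192P. It had 387.7, 431.3, 336.7 and 407.3 normalized counts in L192P and 308.7, 257.0, 338.9 and 261.1 in WT, with a difference of 0.43 ± 0.12 log2 units (SE; DESeq2 adjusted p = 0.0428). WT replicate 3 lay just above L192P replicate 3, so the groups overlapped. Coch, which encodes the secreted protein cochlin and is on the CA3 list, fell in L192P. It had 884.7, 796.6, 659.5 and 861.3 normalized counts in L192P and 934.3, 1204, 948.3 and 1139 in WT, without overlap, with a difference of -0.40 ± 0.11 log2 units (SE; DESeq2 adjusted p = 0.0331). edgeR gave an adjusted p of 0.162 for either gene. Cacng5 passed in 8 of 19 alternatives (adjusted p between 0.0198 and 0.277) and Coch in 10 of 19 (between 0.000894 and 0.219). With the replicate block Coch had an adjusted p of 0.00159 and Cacng5 of 0.0529. Leaving out 1 library ended the call of Cacng5 for 5 of the libraries (L192P 1, L192P 2, L192P 4, WT 2 and WT 4) and that of Coch for 4 (L192P 2, L192P 3, WT 2 and WT 4).

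Further genes of the CA lists did not pass. Amigo2, an adhesion protein on the CA2 list, had a log2 fold change of 0.32 (DESeq2 adjusted p of 0.434). Pou3f1 and Man1a on the CA1 list had log2 fold changes of -0.20 and -0.14, and Bok on the CA3 list of -0.16. Zbtb20 and Nr3c2, the mineralocorticoid receptor gene, stand for the hippocampus as a whole, with log2 fold changes of -0.06 and 0.05. On the mossy cell list Calcrl and Glipr1 had log2 fold changes of 0.36 and -0.17, and on the subiculum list Fn1 and Nts had 0.49 and 0.55. None of these was called with all libraries. Fn1 and Nts were both called without both replicate 1 libraries. Fn1 was also called without L192P replicate 1, and Nts without WT replicate 1.

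The excess in replicate 3 extended to part of these genes. Of the 31 list genes, 14 had replicate 3 as the highest library in both genotypes, where 6.97% of all tested genes did. They included 5 of 9 dentate granule genes, 4 of 6 CA3 genes and both genes of the hippocampus as a whole, but 1 of 3 CA1 genes, 1 of 5 CA2 genes and 0 of 3 subiculum genes. C1ql2 had 101.8, 135.4, 471.6 and 103.0 normalized counts in L192P and 171.2, 80.2, 328.1 and 57.4 in WT. Prox1, a transcription factor on the dentate granule list, had 950.1 and 960.3 in the replicate 3 libraries and 480.3 to 599.8 in the other 6. Homer3, a postsynaptic scaffold protein on the CA3 list, had 307.9 and 294.4 in replicate 3 and 94.8 to 199.97 elsewhere. Other list genes went the other way. Calb1 on the dentate granule list was not high in replicate 3. Its 8 libraries lay between 4490 (L192P replicate 3) and 5475 normalized counts. Sema5b on the dentate granule list was lowest in replicate 3 of both genotypes, at 288 (L192P) and 409.5 (WT), against up to 488.7 and 434.3. Coch on the CA3 list was lowest of L192P in replicate 3, at 659.5.

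**Figure D4:**
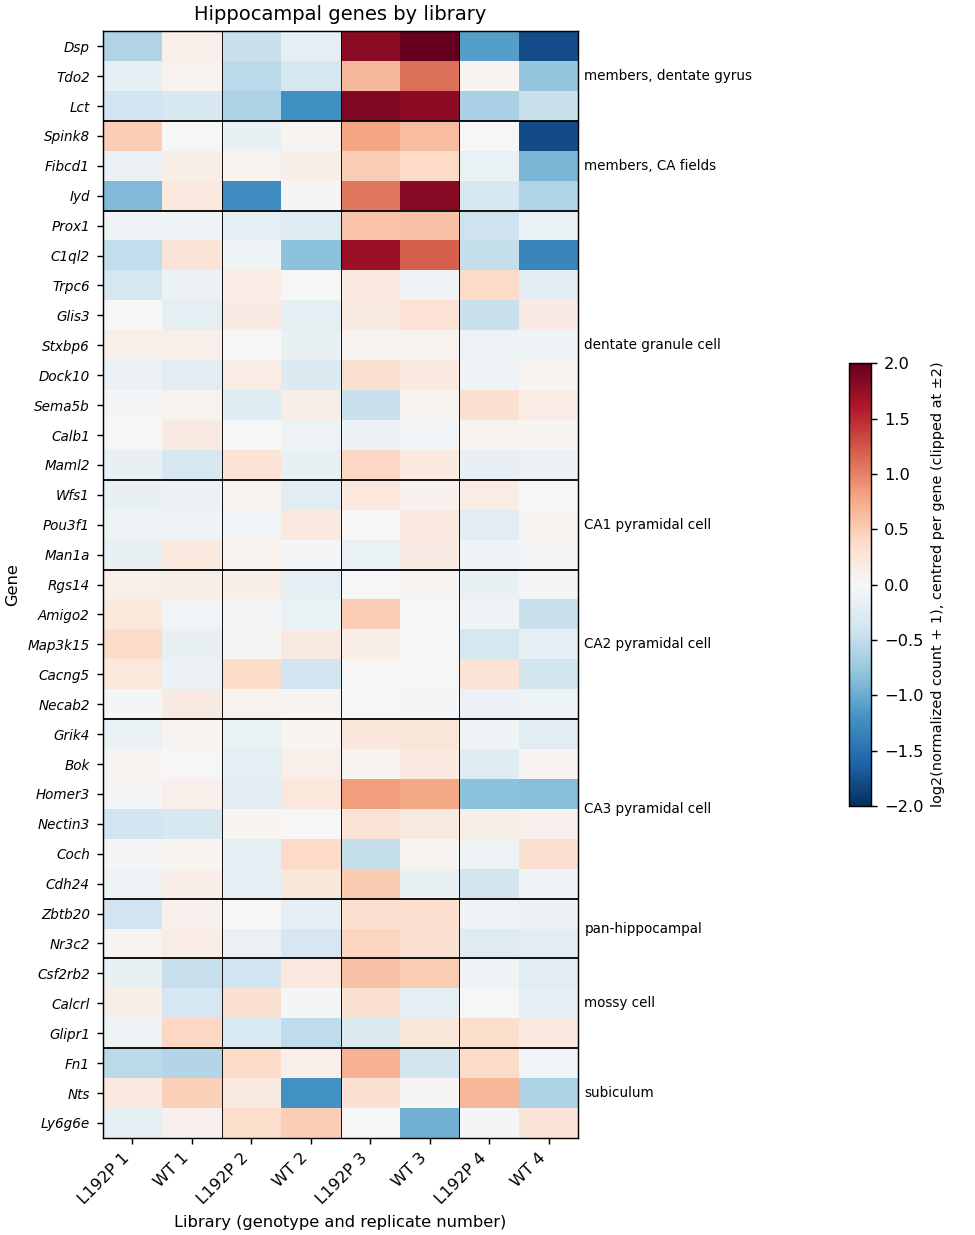
Log2 of normalized counts plus 1, centred on the mean of each gene, for the 6 markers and the 31 further hippocampal genes (rows, grouped by list) in the 8 libraries (columns, ordered by replicate number). Red is above and blue below the mean of the gene. The replicate 3 columns are red for all 6 markers, and for C1ql2, Prox1 and Homer3.

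Markers of other regions were followed over the same libraries. The thalamus list had 3 of 6 genes with replicate 3 highest in both genotypes, and its summed normalized counts were 7216 in L192P replicate 3 (3697 to 6021 in the other L192P libraries) and 4214 in WT replicate 3 (3560 to 3960). The 6 choroid plexus genes summed to 38150 in L192P replicate 3 (16578 to 36273 in the other L192P libraries) and to 19345 in WT replicate 3 (14370 to 32627). The 6 hypothalamic genes summed to 1120 in L192P replicate 3 (79.7 to 558.7) and to 58.7, the lowest, in WT replicate 3 (up to 202.5). For the choroid plexus (6 genes), meninges (8), hypothalamus (6), striatum (6), cortical projection neuron (8) and immature neuron (5) lists, 0 genes had replicate 3 as the highest library in both genotypes. The summed striatal genes were lowest in replicate 3 of each genotype, at 16736 in L192P and 20682 in WT, against up to 20962 and 24521. The sum of the cortical list was lowest in L192P replicate 3 (13428, against up to 16085), while WT replicate 3 (16647) lay inside the WT range of 15387 to 18218. Dsp is also a gene of epithelia and the arachnoid. The meningeal list summed to 1630 normalized counts in L192P replicate 3 and 887.5 in WT replicate 3, within the ranges of 1011 to 1659 in L192P and 779.7 to 1151 in WT. No marker of these lists was at 0 in all libraries, and Pmch of the hypothalamus list was at 0 in at least 1 library of each genotype. The part of tissue composition in the replicate 3 values was not tested.

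Between the genotypes, DESeq2 called 2 hypothalamic genes, Oxt and Avp, and 2 meningeal genes, Aldh1a2 and Slc6a13, all higher in L192P. Each of these calls was lost in part of the 19 alternatives. Slc6a13 passed in 12 (edgeR adjusted p = 0.187), Aldh1a2 in 16 (edgeR adjusted p = 0.0960), and Oxt and Avp in 17 each. limma-voom called none of the 4, Aldh1a2, Slc6a13 and Avp were lost without both replicate 3 libraries, and Oxt had no adjusted p with the replicate block. Slc6a13 was also lost when L192P 2, L192P 3, WT 3 or WT 4 was left out. Of the thalamus, choroid plexus, striatum and cortical projection neuron lists 0 genes were called. All 6 thalamic genes had log2 fold changes above 0, led by Tcf7l2 at 1.51 ± 0.56 (SE, DESeq2 adjusted p = 0.204) and Slc17a6, a vesicular glutamate transporter, at 0.78 ± 0.29 (DESeq2 adjusted p = 0.209). All 6 striatal genes were below 0, led by the receptor genes Adora2a and Drd2 at -0.30 and -0.29 (DESeq2 adjusted p = 0.0992 and 0.0644). On the cortical list Lamp5 and Foxp2 had -0.30 and 0.26, and on the choroid plexus list Ttr and Folr1 had 0.35 and 0.27.

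Genes of the pathways in which the markers act were taken from further lists. Of the 11 genes of the kynurenine pathway other than Tdo2, 6 passed the count filter and 0 were called. Ido1, which catalyses the same step as Tdo2, had a difference of -0.66 ± 0.22 log2 units (SE; DESeq2 adjusted p = 0.108), and Qprt, which converts quinolinate, of 0.76. Of 11 desmosomal genes that could pair with Dsp, 10 were tested and 0 were called. Evpl and Ppl, plakins like Dsp, differed by 0.40 and 0.52 log2 units, at DESeq2 adjusted p = 0.115 and 0.834. Of 8 genes of thyroid hormone handling, set beside Iyd, 7 were tested and 0 were called. Dio2 and Dio3, the deiodinases that activate and inactivate the hormone, had log2 fold changes of -0.17 and 0.36, and Dio1 had no counts in any library. Among genes of these lists with a mean of at least 10 normalized counts, 0 of 6, 1 of 10 and 0 of 7 had replicate 3 highest in both genotypes.

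The genes whose library pattern was most like that of the markers were sought among 15384 genes with a mean of at least 20 normalized counts. Likeness was the root-mean-square difference over the 8 libraries between centred log2 values of the gene and the mean of the 6 markers, so that a small value means a close match in shape and in size. The 9 closest were Lefty1, Cabp7, Shisa6, Il16, Homer3, Klk8, C1ql2, Cebpd and Ntf3, with differences from 0.201 for Lefty1 to 0.375 for Ntf3, where the median over all candidates was 0.774. The markers themselves were 0.254 (Tdo2) to 0.559 (Dsp) from their own mean. All 9 had replicate 3 highest in both genotypes, and 2 of them, Homer3 and C1ql2, are on the hippocampal lists above.

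Lefty1, an antagonist of Nodal signalling, had 30.8, 22.8, 72.6 and 19.2 normalized counts in L192P and 42.8, 25.4, 83.6 and 14.0 in WT. Shisa6, an auxiliary protein of AMPA receptors, was among the most abundant of the 9, with 905.1 and 803.9 normalized counts in replicate 3 and 323.1 to 610.1 in the other libraries. Klk8, the serine protease neuropsin, had 115.3 and 104.3 in replicate 3 and 31.8 to 56.9 elsewhere. Between the genotypes the 9 genes had log2 fold changes from -0.19 (Lefty1) to 0.37 (Ntf3, neurotrophin-3), and DESeq2 called 0 of them, with adjusted p-values from 0.884 to 0.9999. They were selected on the same 8 libraries, so their shared shape is a result of the selection.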

How the data were processed

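Polyadenylated RNA of cerebral cortex was sequenced as 4 L192P and 4 WT stranded libraries. The authors aligned the reads to GRCm39 with STAR (2.7.9a per the labels), tallied them per gene with featureCounts 1.5.1 and deposited raw counts per library. A further deposited table of scaled counts was not used. The release of the gene annotation is not given in the sources used here.

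DESeq2 1.42.0 in R 4.3.3 was fitted to all 55416 genes with genotype as the term, as the methods of the study name this tool, with a Benjamini-Hochberg adjusted p under 0.05 and no minimum fold change. Alternatives were edgeR 4.0.16 (quasi-likelihood), limma 3.58.1 (voom), other size factors and filters, the replicate block, and leaving out libraries. A pseudocount of 1 was used for the centred log2 values (likeness and heatmap), and none for the ratios within replicate numbers. Nothing in the labels says that libraries of a group came from separate animals, so p-values measure the spread between these libraries. No pair of libraries of a genotype agreed within sampling noise (chi-square per degree of freedom 5.98 to 25.0 over 12 pairs). Deviations from the group mean over 13422 genes correlated at 0.233 to 0.628 between libraries of the same number, and at -0.375 to 0.144 over the 12 pairs of different numbers, so the numbers were treated as pairing the libraries.

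The members and lists were chosen with earlier results of these data known. List genes were named when called or when among the 2 largest fold changes of their list at a mean of at least 10 normalized counts. Other list genes named for their levels (Prox1, Homer3, Calb1, Sema5b, Tbr1, Cux2, Ppp1r1b, Ido2 and the further immature neuron genes) fall outside this rule and were picked after their values were seen. The 10 genes most like the markers across libraries were also to be named, of which 1 is not reported here. Gene positions and exon lengths came from GENCODE M39 on GRCm39, which held 98.8% of the identifiers. The fits were tested on simulated counts, where the share of false calls was above the nominal level for DESeq2, with and without the block, and nearer to it for edgeR and limma-voom. The simulated counts held no shared effect of the replicate number, unlike these libraries. They therefore cannot show whether the fit with or without the block suits these data better.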

Additional observations from a re-analysis of the deposited data

Results flagged for a closer look

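The 4 values of each genotype were examined for an extreme one, measured by how much of their range separated it from its neighbour, in the 6 markers and all 31 genes of the hippocampal lists (37 genes) and in the 21 genes that the naming rule gave for the other lists. Genes picked for their likeness to the markers were not examined, since the pattern chose them. Of 116 groups, 12 stood apart. Chance would give about 5.8 if the groups were independent and normally distributed. The groups came from the same libraries, and the members and lists were chosen with earlier results known. The count of 12 therefore cannot be weighed against that figure and is a description. In the hippocampal genes 7 of 74 groups stood apart, and in all 7 the distant library was replicate 3.

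Dsp in L192P replicate 3 had 123.4 normalized counts where the remaining 3 spanned 15.6 to 25.04 (0.912 of the range). Lct had 187.9 in L192P replicate 3 with the rest at 32.3 to 39.2 (0.956 of the range) and 179.2 in WT replicate 3 with the rest at 21.5 to 41.0 (0.876). Iyd had 35.8 in WT replicate 3 with the rest at 5.85 to 10.9 (0.831). Prox1 had 960.3 in WT replicate 3 with the rest at 530.4 to 599.2 (0.840). C1ql2 had 471.6 in L192P replicate 3 with the rest at 101.8 to 135.4 (0.909), and Grik4, a kainate receptor subunit of the CA3 list, had 784.0 there with the rest at 610.1 to 636.1 (0.851).

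The other 5 were not all from replicate 3. Pmch had 261.7 in L192P replicate 3 with the rest at 0 to 16.8. Oxt had 19.3 in L192P replicate 2, below the rest at 143.0 to 154.5, and Avp had 21.9 in WT replicate 1 with the rest at 10.5 to 11.9. Aldh1a2 had 180.3 in WT replicate 4, below the rest at 236.8 to 244.0. Folr1 had 231.6 in WT replicate 2 with the rest at 89.0 to 112.0.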

How the results depend on the processing

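None of the 6 markers passed the adjusted threshold under any alternative that gave an adjusted p. Spink8 stayed higher in L192P in all 19 alternatives, from 0.10 to 0.69 on the log2 scale. Reversals came mostly from leaving out a library. Over the 8 such fits the log2 fold change ran from -1.53 to 0.86 for Dsp, from -0.41 to 0.37 for Tdo2, from -0.995 to 1.14 for Lct, from -0.12 to 0.25 for Fibcd1 and from -1.60 to 0.0092 for Iyd. Tdo2 also turned to 0.018 with limma-voom and to 0.094 without both replicate 3 libraries. With the replicate block in DESeq2, only Fibcd1 had an adjusted p, and it was not called. The other markers could not be called in that fit.

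The number of genes called, 253, was 53 with edgeR, 45 with limma-voom, 533 with the replicate block, 513 with edgeR and the block, 500 without both replicate 1 libraries and 76 without both replicate 3 libraries. Leaving out 1 library gave 112 (WT replicate 4) to 496 (WT replicate 1). The fits without both replicate 3 libraries and edgeR with the block were added after seeing the data. The number of called genes among the 31 of the hippocampal lists, 2, was 0 with edgeR, limma-voom or independent filtering off, and 1 with total-count size factors, the replicate block, edgeR with the block, or without both replicate 3 libraries. Leaving out 1 library gave 0 to 3, and the genes called were not always the same. Fn1 was among them without L192P replicate 1, and Nts without WT replicate 1. The cause of these differences was not tested. edgeR and limma-voom gave no value for Iyd, which was under their count filter. Markers with few counts, such as Iyd at 3 to 33 counts per library, have coarse fold changes.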

Other observations

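Eomes, a transcription factor of intermediate progenitors that include those of the dentate subgranular zone, was called on the immature neuron list. It had 19.6, 59.2, 34.6 and 47.9 normalized counts in L192P replicates 1 to 4 and 15.5, 13.6, 17.4 and 2.34 in WT, without overlap. DESeq2 put the difference at 1.70 ± 0.45 log2 units (SE; adjusted p = 0.0204). The edgeR adjusted p was 0.162, and 9 of 19 alternatives called Eomes (adjusted p between 0.00255 and 0.224). The call was lost when L192P 2, L192P 3, L192P 4, WT 2 or WT 4 was left out, and Eomes had no adjusted p with the replicate block. Dcx, Sox11, Igfbpl1 and Draxin of the same list were not called, with log2 fold changes of 0.16, 0.30, 0.47 and -0.28.

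Ido1 and Ido2, the paralogous enzymes of the step that Tdo2 catalyses, had WT libraries that lay entirely above the L192P libraries, though neither passed the test. Ido1 had 46.1 to 83.1 normalized counts in L192P and 85.8 to 124.8 in WT (DESeq2 adjusted p of 0.108). Ido2 had 30.7 to 48.4 and 55.4 to 62.0 (DESeq2 adjusted p of 0.607). Both were picked out after their values were seen, and 5.97% of all tested genes had groups that did not overlap.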
